A study of Mus musculus with 6 samples.

Results

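The insulin-like growth factor (IGF) system was followed through 10 genes: the ligands Igf1 and Igf2, the receptors Igf1r and Igf2r, and the binding proteins Igfbp2, Igfbp3, Igfbp4, Igfbp5, Igfbp6 and Igfbp7. They were chosen by name, with earlier results of these data known, and make up 10 of the 15441 genes that had a value in at least 1 library. Each of the 10 was listed in all 6 libraries.

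The libraries came from male C57BL/6J mice of 6 to 8 weeks in which a focal stroke of the sensorimotor cortex was made by photothrombosis, that is, by light shone on the skull after injection of the dye Rose Bengal so that clots form in the lit vessels. The post-stroke groups were taken on day 1, 3, 7, 14 and 28, and the sham group, operated without illumination, on day 7 after the operation. RNA of the whole cortex on the ipsilateral side was pooled from 3 mice per group, poly(A)-selected and read as strand-specific pairs of 150 bases, at a mean of 33.6 M reads for each library by the submitters' account. Every group is thus 1 library, no difference given here has a replicate check, and the depth of the single libraries is unknown.

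The values are FPKM, fragment counts scaled to transcript length and to the reads mapped in the library, so that levels of different genes can be set side by side per length. The deposited tables give them for transcript starts, transcript ends and splicing events, and the value of a gene is the largest of its summed starts, its summed ends and any single event. The number of genes listed was 13267 in sham, 13357 on day 1, 13800 on day 3, 13987 on day 7, 13263 on day 14 and 13385 on day 28. A gene without any value in a library is called not listed, which does not mean that its RNA was absent.

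The cortex label was checked against marker genes. Of 4 cortical neuron markers, 3 were listed in sham, and their summed FPKM was 336 in sham, 332 on day 1, 275 on day 3, 251 on day 7, 184 on day 14 and 281 on day 28. Slc17a7, the vesicular glutamate transporter of cortical excitatory neurons, was the most abundant in every library, while Neurod6 was not listed in any library. Past a log2 ratio of 1 in size, Cux2 was lower on day 7 and 14, with none of the 3 compared past it on the other days. The 7 pan-neuronal markers, Snap25 the most abundant and Tubb3 not listed in any library, summed to 1314 in sham, 1209 on day 1, 917 on day 3, 976 on day 7, 940 on day 14 and 1158 on day 28, with 0 of 6 compared past the fold on any day. Cortical neuron markers were thus present in all 6 libraries.

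Markers of regions beside the cortex were followed as well, and where their RNA came from was not tested. The 5 striatal markers, led by Ppp1r1b and with Drd1 not listed, summed to 256 FPKM in sham, 281 on day 1, 186 on day 3, 175 on day 7, 295 on day 14 and 337 on day 28, and 0 of 4 compared passed the fold on any day. Of 4 hypothalamic markers none was listed in sham, while Oxt, Avp and Pmch together reached 54.3 FPKM on day 1, 10.01 on day 3, 33.3 on day 7, 20.4 on day 14 and 4.49 on day 28. Pmch was the most abundant of them on day 1 and 3 and Avp later, Hcrt was not listed in any library, and 3, 2, 3, 3 and 2 of the 4 counted as higher on day 1, 3, 7, 14 and 28. Oligodendrocyte markers, led by Mbp and with Mobp of the 6 not listed, summed to 1716 in sham, 2177 on day 1, 1671 on day 3, 1995 on day 7, 1948 on day 14 and 1548 on day 28, and only Mag on day 7 was past the fold among the 5 compared. The part of these regions and cells in the results on the IGF genes was not tested.

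As background, IGF1 and IGF2 are small secreted proteins related to insulin. They act mainly through the receptor tyrosine kinase IGF1R, which signals to growth and survival through PI3K, AKT and TOR, while IGF2R binds IGF2 and carries it, with other cargo, to lysosomes. The secreted binding proteins hold the ligands in body fluids and tissue, and can restrain or prolong their action; in the brain, IGF1 is known as a growth and survival factor for neurons and oligodendrocytes, and IGF2 is made largely by the choroid plexus and the meninges.

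Ratios to sham were taken as log2((FPKM + 0.1)/(sham FPKM + 0.1)), where at least 1 of the 2 libraries had an FPKM of 1 or more, and a log2 ratio of at least 1 in size, a fold of 2, counts as past the fold. All 5 comparisons share the sham library, so an unusual sham value would move all of them together. On day 1, 1 of 9 members compared was higher (Igfbp3), against 5.11% of the 11790 genes compared, and 0 were lower, against 4.48%. On day 3, 3 of 10 were higher (Igf1, Igfbp2 and Igfbp7), against 8.54% of 12052 genes, and 0 were lower, against 2.53%.

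On day 7, 1 of 10 was higher (Igf1), against 8.53% of 12069 genes, and 0 were lower, against 2.12%. On day 14, 2 of 10 were higher (Igf1 and Igfbp7), against 8.97% of 12045 genes, and 0 were lower, against 6.92%. On day 28, 0 of 10 were past the fold in either direction, against 3.68% of 11751 genes higher and 2.79% lower. With 10 genes, 1 gene past the fold is near the background share, so the counts on day 1, 7 and 28 are not results about the set. Nor is that on day 14, which was 1 of 10 with a pseudocount of 1, after either scaling and after the length correction, against 5.74% to 8.22% of all genes. The count on day 1 rested on a ratio close to the limit, as did that of Igfbp7 on day 14 (both described with these genes).

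The median log2 ratio of the members compared was 0.03 on day 1, 0.54 on day 3, 0.31 on day 7, 0.26 on day 14 and 0.04 on day 28. Over all genes compared it was 0.01, 0.03, 0.03, 0.10 and 0.03 on the same days. The member median thus lay above the median of all genes on day 3, 7 and 14, and, with the values as deposited, beside it on day 1 and 28. Single members lay on both sides of the median of all genes on day 3, 7 and 14. Under the scalings and the length correction the member median lay between 0.49 and 0.56 on day 3, 0.28 and 0.33 on day 7, and 0.16 and 0.27 on day 14, while that of day 1 lay between -0.02 after upper quartile scaling and 0.17 after the length correction, the only one to turn sign, so that its place beside the median of all genes depended on the setting. Correcting each library for its trend with transcript length moved the day 14 median of all genes by -0.10, from 0.098 to -0.0064. Median ratio scaling moved it nearly as far, by -0.096 to 0.0015, and upper quartile scaling by -0.055. The first 2 of these settings centre this median by construction, so the shift is not particular to transcript length. On the other days no scaling moved it by as much as 0.1, and day 14 ratios are best read relative to these shifts.

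**Figure D1:**
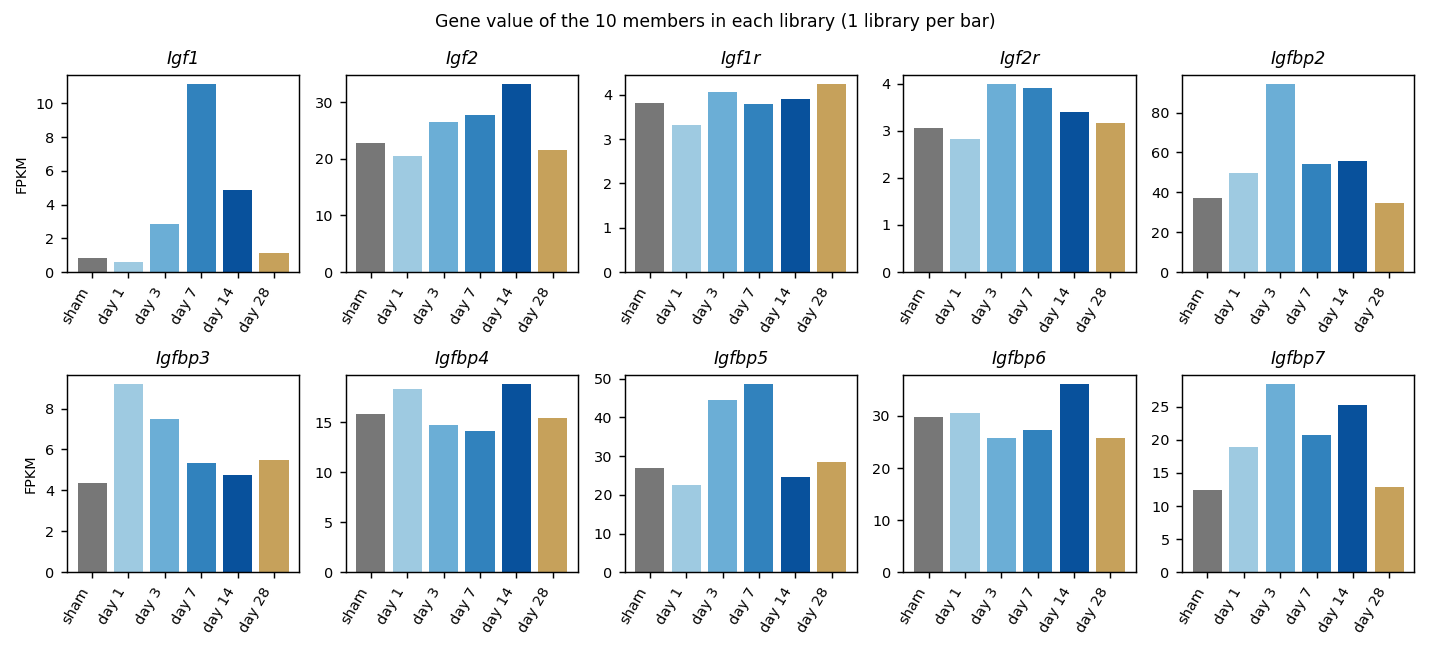
FPKM (y axis, from 0, a scale of its own in each panel) of the 10 genes in the sham library and on day 1, 3, 7, 14 and 28, with 1 library of pooled RNA per bar and so no error bar. Igf1 had its highest bar on day 7 (11.2 FPKM), Igfbp2 and Igfbp7 on day 3 (94.3 and 28.4) and Igfbp3 on day 1 (9.19).

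**Figure D2:**
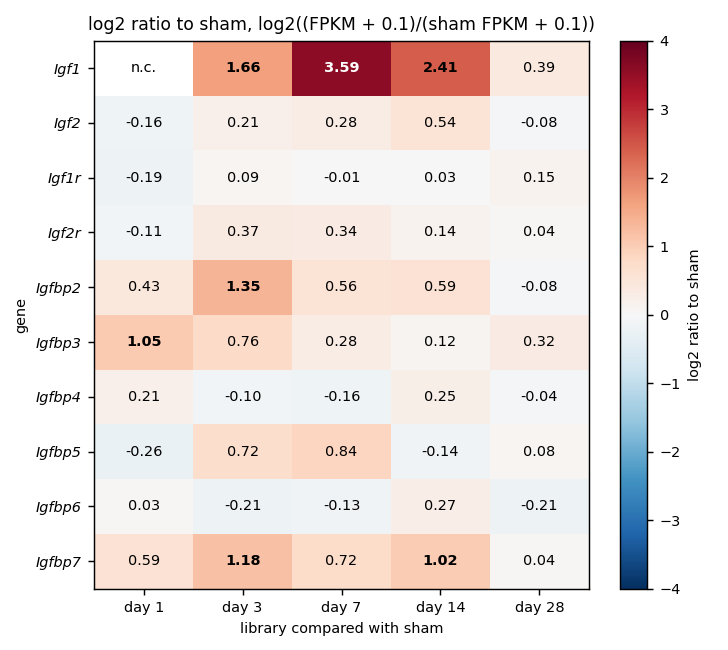
Log2 ratio to sham of each gene (rows) on day 1, 3, 7, 14 and 28 (columns), with the values printed, those past the fold in bold, and n.c. for not compared because both libraries were under an FPKM of 1. Scaling or length correction turned the sign of Igf1r on day 1, 7 and 14, Igf2r and Igfbp6 on day 1, and Igfbp3, Igfbp5 and Igfbp6 on day 14.

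Igf1, the ligand of IGF1R (ENSMUSG00000020053, GRCm38 chr10:87858265-87937042, plus strand), had the widest range among the members. Its FPKM was 0.833 in sham, 0.575 on day 1, 2.84 on day 3, 11.2 on day 7, 4.86 on day 14 and 1.12 on day 28. It was low in sham and on day 1 and 28, high on day 7, and in between on day 3 and 14. The log2 ratio to sham was 1.66 on day 3, 3.59 on day 7, 2.41 on day 14 and 0.39 on day 28, and the day 7 value was 13.4 times that of sham on the linear scale. On day 1 it was not compared, since both values were under 1. Igf1 ranked 10th in level among the 10 members in sham and on day 1, 3 and 28, and 7th on day 7 and 14. The ratios on day 3, 7 and 14 kept their side of the fold under every scaling and length setting tried (lowest 1.61, 3.56 and 2.32). With a pseudocount of 1 they were smaller, at 1.07, 2.73 and 1.68, which brought day 3 close to the limit.

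The Igf1 transcripts in the tables had 4 first exons, called starts here and counted along the strand; starts 1 and 2 begin at the same base and differ in where the first exon ends, so the positions are 3. Start 1 (first exon chr10:87858265-87859013) had 0.355 FPKM on day 3, 3.25 on day 7 and 1.45 on day 14, and start 2 (chr10:87858265-87859639) had 0.763 on day 7; neither was listed in the other libraries. Start 3 (chr10:87859068-87859412) had 0.674 in sham, 0.575 on day 1, 2.28 on day 3, 4.55 on day 7, 2.41 on day 14 and 1.12 on day 28. Start 4 (chr10:87860030-87861385) had 0.159 in sham, 0.208 on day 3, 2.59 on day 7 and 0.995 on day 14, and was not listed on day 1 and 28. On day 1 and 28 all of the summed starts thus lay on start 3, in sham and on day 3 most of it did, and on day 7 and 14 it was spread over several starts. As a share of the summed starts, start 3 made up 80.9% in sham, 100% on day 1, 80.2% on day 3, 40.8% on day 7, 49.6% on day 14 and 100% on day 28, while start 1 made up 12.5% on day 3, 29.2% on day 7 and 29.9% on day 14. Start 4 made up 19.1% in sham, 7.32% on day 3, 23.2% on day 7 and 20.5% on day 14. The part of the low Igf1 level in the number of starts listed was not tested.

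Starts 3 and 4 give the protein different first residues, so their coding bases are printed to show what sets the transcripts apart. Both are on the plus strand of GRCm38, read from the GENCODE M21 transcripts. Capitals mark the coding bases of the first coding exon (63 bases at chr10:87859350-87859412 for start 3, 15 bases at chr10:87861371-87861385 for start 4), and lower case the first 20 bases of the next exon, which they share. In the annotation the transcript that begins at start 1 uses the same first coding bases as start 3.
Igf1 start 3 coding: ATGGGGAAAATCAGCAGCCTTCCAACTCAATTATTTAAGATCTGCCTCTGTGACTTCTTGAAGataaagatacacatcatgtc
Igf1 start 4 coding: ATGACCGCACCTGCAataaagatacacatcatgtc

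Igf1 also carries an exon of 52 bases (chr10:87915298-87915349) that is kept in some transcripts and skipped in others, which gives precursors with different E peptides at their carboxyl end. With the exon in, the FPKM was 0.190 in sham, 0.514 on day 3, 3.09 on day 7 and 1.31 on day 14, and no such event was listed on day 1 and 28. With the exon out, it was 0.625 in sham, 0.575 on day 1, 2.21 on day 3, 8.02 on day 7, 3.54 on day 14 and 1.12 on day 28. The exon was in for 23.3% of the sum in sham, 18.9% on day 3, 27.8% on day 7 and 27.0% on day 14. The form without the exon was thus the more abundant in every library, and both forms were highest on day 7. The share of the form with the exon thus lay between 18.9% and 27.8% in the 4 libraries that list both forms, while the Igf1 level of these libraries ranged from 0.833 to 11.2 FPKM.

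The bases around this exon show how its use alters the end of the reading frame. They are on the plus strand of GRCm38, and capitals mark the exon in the first sequence, with 20 bases on each side; the second joins the same flanks directly, from chr10:87913800 to chr10:87930675. As 52 leaves a remainder of 1 when divided by 3, the last exon is read in another frame: it gives 23 coding bases before the stop codon with the exon in, and 57 with it out.
Igf1 exon in: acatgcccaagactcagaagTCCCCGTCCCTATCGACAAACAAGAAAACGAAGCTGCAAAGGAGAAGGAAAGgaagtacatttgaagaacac
Igf1 exon out: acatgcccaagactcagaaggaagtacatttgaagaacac

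A further exon of 157 bases, chr10:87864731-87864887, is coding in all annotated Igf1 transcripts. It was skipped in transcripts of 0.351 FPKM on day 3, beside 2.28 FPKM with it in, and in none listed in the other 5 libraries.

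**Figure D3:**
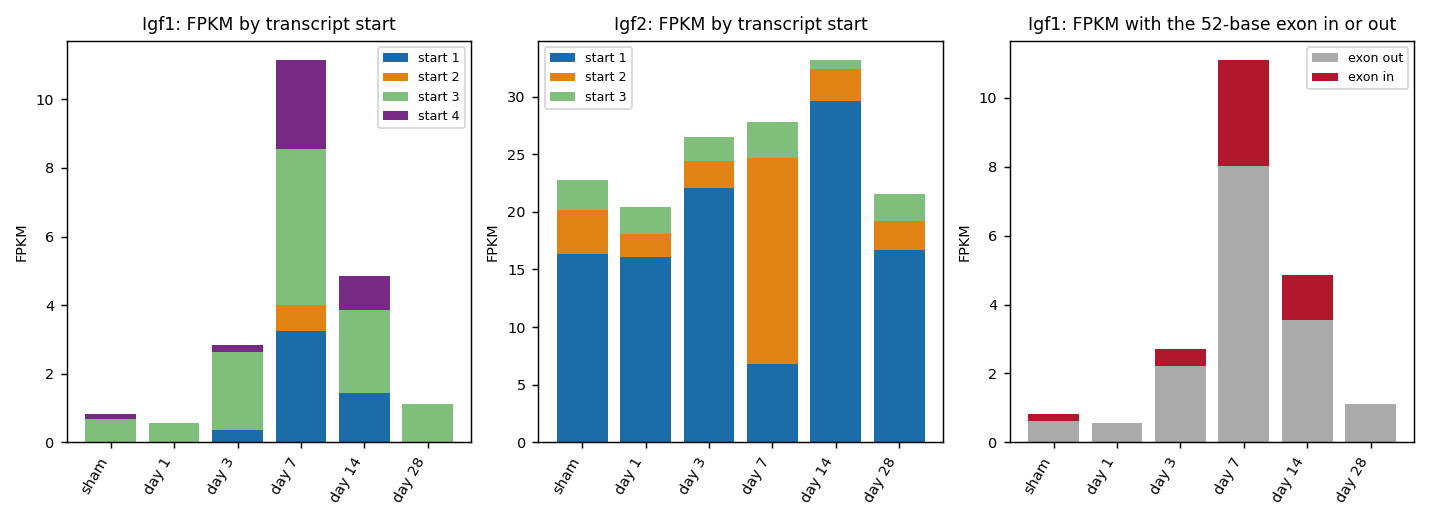
FPKM (y axes, from 0) by library: Igf1 stacked by its 4 first exons, called starts, of which 1 and 2 begin at the same base (left), Igf2 stacked by its 3 starts (middle), and Igf1 stacked by whether the 52-base exon was in or out (right). Start 3 of Igf1 held 40.8% of the summed starts on day 7 against 80.9% in sham, and start 2 of Igf2 held 64.5% on day 7 and at most 16.8% in the other libraries.

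Markers of myeloid cells, and those of fibroblasts and meninges given further below, were higher in the same libraries as Igf1. Of 7 microglia markers, 3 of the 4 compared were past the fold on day 3 (Csf1r, Aif1 and Trem2), 2 of 4 on day 7 (Csf1r and Trem2) and 3 of 5 on day 14 (Cx3cr1, Aif1 and Trem2), with 0 higher on day 1 and 28 and P2ry12 lower on day 1. Their summed FPKM was 55.9 in sham, 43.8 on day 1, 116 on day 3, 141 on day 7, 114 on day 14 and 59.4 on day 28, with Trem2 the most abundant on day 7 and 14 and Csf1r in the other libraries. Itgam was not listed in any library, Cx3cr1 was listed only on day 1 and 14 and Tmem119 only on day 7 and 28. P2ry12, a receptor of resting microglia, had 18.0 FPKM in sham and 17.7 on day 7. The markers listed in all 6 libraries did not share 1 peak. Trem2 had 32.6 FPKM on day 3 and 63.2 on day 7, while Csf1r had 50.4 and 52.3. Aif1 was highest on day 14 (15.2, against 7.25 on day 7) and P2ry12 on day 3 (21.7). The day 7 maximum of the sum thus rested largely on Trem2.

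Of 7 markers of infiltrating or border macrophages, 6 of 6 compared were past the fold on day 3, 5 of 6 on day 7, 3 of 5 on day 14 and 1 of 5 on day 28 (Lyz2), and 0 of 4 on day 1. Their sum was 15.7 FPKM in sham, 24.0 on day 1, 173 on day 3, 404 on day 7, 224 on day 14 and 35.4 on day 28. Lyz2 was the most abundant in every library, and made up most of the sum on day 3, 7, 14 and 28 but not in sham and on day 1. Ccr2 was not listed in sham and on day 14 and 28, and F13a1 not on day 14. Both sums were thus highest on day 7, as was Igf1. The fibroblast and meninges sum was highest on day 7 too (113 FPKM, against 30.6 in sham), so this timing was not particular to myeloid markers. The part of these lists in the Igf1 values was not tested. In pooled tissue RNA, more cells of a type and more RNA per cell, or fewer and less, cannot be told apart.

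The genes with a profile most like that of a member were sought among 10169 genes listed with an FPKM of at least 1 in all 6 libraries, by the root mean square difference of log2(FPKM + 0.1) after centring each gene on its mean, for the 5 members whose log2 range over the libraries was at least 1. Igf1 itself was under this limit in sham and on day 1, so genes that were as low there could not be found. Ms4a7 of the macrophage list was left out in this way. Its FPKM was 0.494 in sham, 0.408 on day 1 and 1.44 on day 3. On day 7, 14 and 28 it was 3.96, 3.91 and 0.589. Within the limit, the genes most like Igf1 were Trem2 (a difference of 0.43), Lgals3bp (0.46) and Ctsd (0.50). Lgals3bp, a secreted glycoprotein, had 4.97 FPKM in sham, 5.20 on day 1, 15.4 on day 3, 30.1 on day 7, 26.8 on day 14 and 6.18 on day 28. Ctsd, the lysosomal protease cathepsin D, had 124 in sham, 151 on day 1, 655 on day 3, 1169 on day 7, 486 on day 14 and 135 on day 28. Trem2, Lgals3bp and Ctsd all shared the day 7 maximum of Igf1, whose log2 range of 4.06 was the widest of the 5 members. Its nearest profiles within the limit were also the least close. The other members compared were above the limit in every library, and the part of the limit in this difference was not tested.

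Igf2 (ENSMUSG00000048583, chr7:142650766-142666816, minus strand), the other ligand and an imprinted gene, was far more abundant than Igf1 in sham. The FPKM of Igf2 was 22.8 in sham, 20.4 on day 1, 26.5 on day 3, 27.8 on day 7, 33.2 on day 14 and 21.5 on day 28. Day 14 was the highest library and day 1 the lowest, 1.63 times apart. No log2 ratio was past the fold: it was -0.16 on day 1, 0.21 on day 3, 0.28 on day 7, 0.54 on day 14 and -0.08 on day 28, with the same signs under every scaling. Igf1 made up 3.53% of the summed ligand FPKM in sham, 2.74% on day 1, 9.69% on day 3, 28.7% on day 7, 12.8% on day 14 and 4.94% on day 28. The ligand sum itself was 23.6 FPKM in sham, 21 on day 1, 29.3 on day 3, 38.9 on day 7, 38.0 on day 14 and 22.6 on day 28. Igf2 therefore remained the main ligand RNA in all 6 libraries, day 7 included.

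While the Igf2 level differed little, the start to which it was assigned differed on day 7. Start 1 (first exon chr7:142660932-142661305) had 16.3 FPKM in sham, 16.1 on day 1, 22.1 on day 3, 6.77 on day 7, 29.6 on day 14 and 16.7 on day 28. Start 2 (chr7:142658364-142659489) had 3.83 in sham, 2.00 on day 1, 2.37 on day 3, 17.9 on day 7, 2.80 on day 14 and 2.53 on day 28. Start 3 (chr7:142657388-142657496) had 2.63 in sham, 2.31 on day 1, 2.00 on day 3, 3.07 on day 7, 0.794 on day 14 and 2.34 on day 28. Start 1 led in 5 libraries and start 2 in the day 7 library alone. The share of start 1 in the summed starts was 71.7% in sham, 78.8% on day 1, 83.5% on day 3, 24.4% on day 7, 89.2% on day 14 and 77.4% on day 28, and that of start 2 was 16.8%, 9.82%, 8.95%, 64.5%, 8.44% and 11.7% in the same order. The share of start 3 lay between 2.39% on day 14 and 11.5% in sham. Since the starts share their later exons, the division between them rests on the first exons and on the assembly of each library, and whether the day 7 division holds in another library was not tested. No end event was listed for Igf2.

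The first exons differ in coding sequence as well. In the annotated transcript that begins at start 2, translation begins in the first exon, which adds coding bases ahead of those of the other transcripts. The 27 coding bases that lie in this first exon (chr7:142658364-142658390, minus strand of GRCm38, from the GENCODE M21 transcript) are in capitals. They are followed by the first 20 bases of the next exon, in which the coding sequence goes on.
Igf2 start 2 coding: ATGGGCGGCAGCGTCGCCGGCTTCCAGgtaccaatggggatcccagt

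The bases before starts 1 and 3 are printed because the use of the Igf2 starts differed between libraries; the window before start 2 lies within an annotated first exon and is left out. Of the members, 10 of 10 had an entry among the RefSeq promoters (GRCm38.p6), which give 250 bases before each start. TATAAA (a form of the TATA box), CCAAT (the box of that name) and GGGCGG (a GC box) were searched on both strands, and no 2 matches overlapped in these windows. Other forms of these boxes were not searched. Capitals mark the matches. Of all 32851 RefSeq promoters, 12.4% held TATAAA, 33.8% CCAAT and 32.7% GGGCGG in 250 bases. Before start 1 (chr7:142661306-142661521, minus strand) only 216 bases are given, since the RefSeq start lies 34 bases inside the first exon of the tables, and in 216 bases the shares were 9.80%, 30.5% and 27.9%. This window held none of the 3 motifs, which says only that these letters are not in it. The window before start 3 (chr7:142657497-142657746, minus strand) held CCAAT once on the other strand and GGGCGG at 2 places.
Igf2 promoter 1: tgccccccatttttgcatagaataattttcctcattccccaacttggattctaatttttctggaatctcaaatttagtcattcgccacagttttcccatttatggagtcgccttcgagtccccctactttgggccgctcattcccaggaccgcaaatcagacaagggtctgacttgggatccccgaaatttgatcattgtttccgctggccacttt
Igf2 promoter 3: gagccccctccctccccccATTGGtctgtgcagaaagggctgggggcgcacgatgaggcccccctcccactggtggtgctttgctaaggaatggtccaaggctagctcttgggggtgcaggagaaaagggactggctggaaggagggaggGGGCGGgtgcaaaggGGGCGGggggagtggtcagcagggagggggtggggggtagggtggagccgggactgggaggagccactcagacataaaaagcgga

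Cells known to make Igf2 were followed by their own markers. The 7 choroid plexus markers summed to 293 FPKM in sham, 474 on day 1, 188 on day 3, 354 on day 7, 302 on day 14 and 571 on day 28, nearly all of it Ttr, the carrier transthyretin. Only Folr1 was past the fold, higher on day 1 (1 of 7 compared) and on day 28 (1 of 7), and Otx2 was not listed on day 3. Day 28, the library with the highest choroid plexus sum, was among those with the lower Igf2 values.

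Of the 7 fibroblast and meninges markers, 5 of 6 compared were higher on day 3 (Col1a1, Col1a2, Col3a1, Dcn and Lum), 4 of 6 on day 7, 5 of 6 on day 14 and 0 of 6 on day 1 and 28. They summed to 30.6 FPKM in sham, 32.1 on day 1, 92.5 on day 3, 113 on day 7, 103 on day 14 and 31.8 on day 28, with Dcn the most abundant except on day 7, when it was Col1a2, and with Islr not listed in any library. The fibroblast sum was thus high in the 3 libraries in which Igf2 was highest. The part of both lists in the Igf2 values was not tested.

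**Figure D4:**
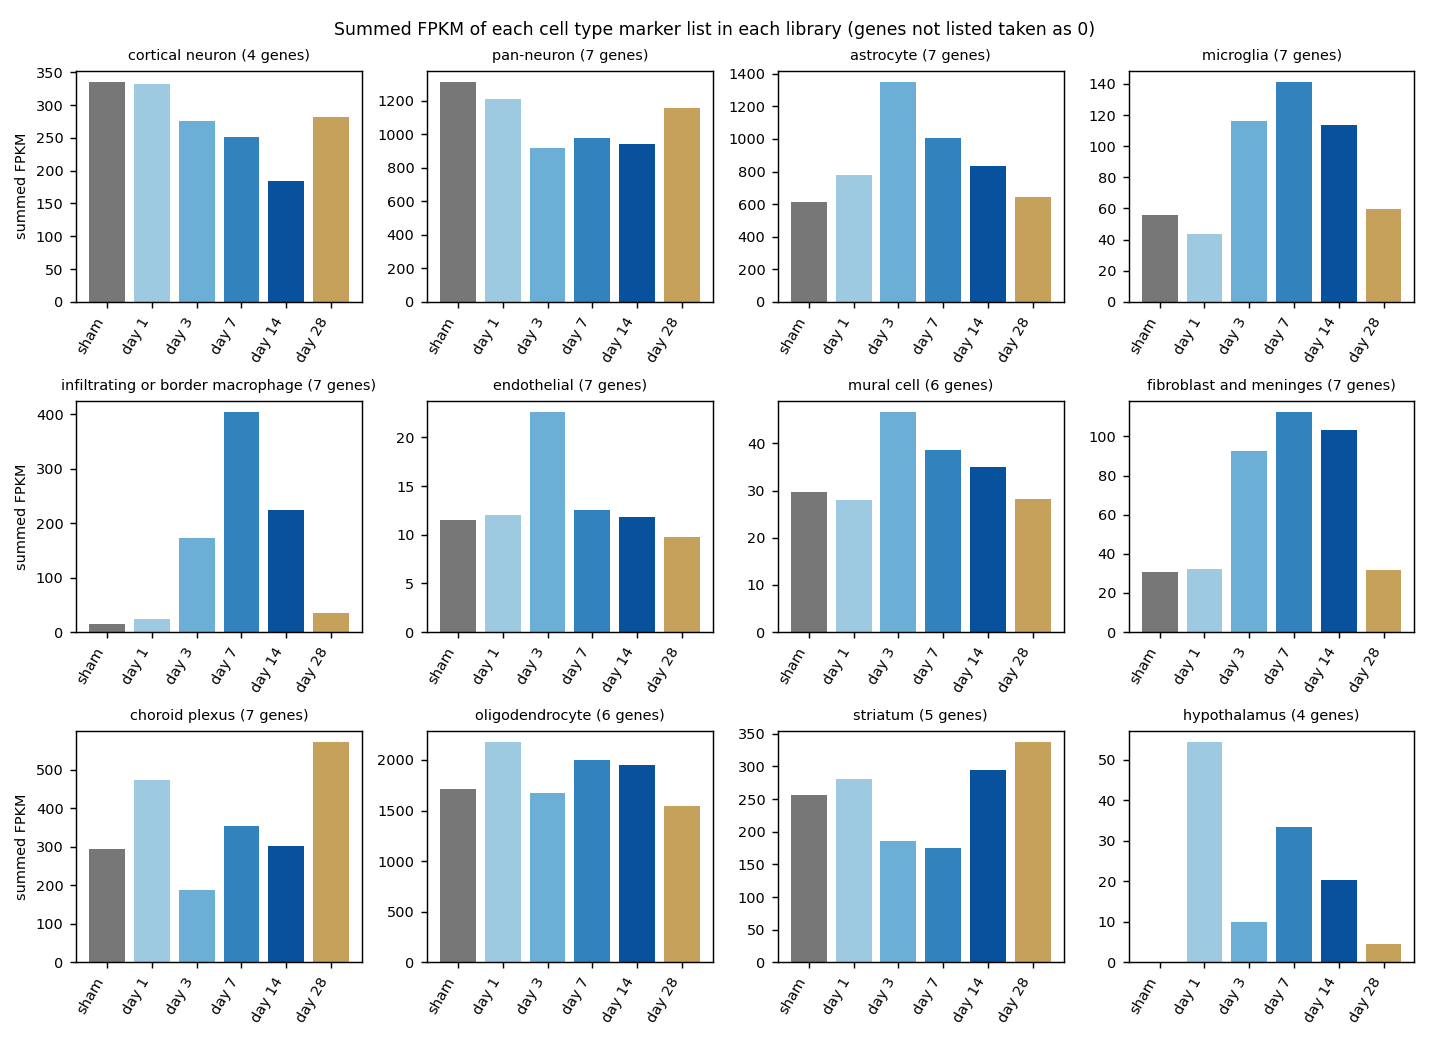
Summed FPKM (y axis, from 0, a scale of its own in each panel) of the 12 cell type and region marker lists in each library, with genes that were not listed taken as 0. The macrophage list had its highest bar on day 7 (404), the astrocyte list on day 3 (1351) and the choroid plexus list on day 28 (571), and the hypothalamus list was 0 in sham.

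The receptors differed less than the ligands. Igf1r, the signalling receptor (ENSMUSG00000005533, chr7:67952827-68233668, plus strand), had 3.82 FPKM in sham, 3.33 on day 1, 4.07 on day 3, 3.80 on day 7, 3.90 on day 14 and 4.25 on day 28. Its lowest and highest libraries, day 1 and 28, were 1.28 times apart, and no library stood out. Its log2 ratios to sham were -0.19, 0.09, -0.01, 0.03 and 0.15 from day 1 to day 28, and those on day 1, 7 and 14 turned sign with the scaling or length correction.

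The start that carried most Igf1r transcripts (chr7:67951568-67952952) had 3.49 FPKM in sham, 3.27 on day 1, 3.98 on day 3, 3.69 on day 7 and 3.79 on day 28, but was not listed on day 14. The value on day 14 therefore came from the end of the gene, chr7:68226020-68233669, at 3.90 FPKM, and with starts alone the log2 ratio there was -4.70. An exon of 93 bases that the annotation does not hold, chr7:68208913-68209005, was in for 0.513 FPKM in sham, 1.10 on day 7 and 0.411 on day 28, or 14.7%, 29.9% and 9.79% of the transcripts with the exon in or out. Such transcripts were not listed on day 1, 3 and 14.

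Igf2r, the mannose 6-phosphate receptor that clears IGF2 (ENSMUSG00000023830, chr17:12682406-12769664, minus strand), had 3.07 FPKM in sham, 2.82 on day 1, 3.99 on day 3, 3.91 on day 7, 3.39 on day 14 and 3.17 on day 28. With the values as deposited, day 3 and 7 were the highest libraries, at log2 ratios of 0.37 and 0.34. The ratio was -0.11 on day 1, with the opposite sign under the length correction, 0.14 on day 14 and 0.04 on day 28. After the length correction day 14 was the highest, at 0.46, beside 0.32 on day 3 and 0.37 on day 7. Its start (chr17:12769400-12769664) was not listed on day 14 either, when the value came from an alternatively spliced exon inside the gene (chr17:12698525-12698644). Both receptors stayed within a narrow range of FPKM over the time course, and Igf1r and Igf2r were close to each other in level in all 6 libraries.

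The 6 binding proteins together were more abundant than the ligands in every library. Their summed FPKM was 126 in sham, 149 on day 1, 215 on day 3, 170 on day 7, 165 on day 14 and 123 on day 28. Set against the summed ligands, this was 5.36 times in sham, 7.12 times on day 1, 7.35 times on day 3, 4.38 times on day 7, 4.34 times on day 14 and 5.42 times on day 28. The excess of binding protein RNA was thus largest on day 1 and 3 and smallest on day 7 and 14, when the ligand sum was at its highest. These are ratios of RNA levels per length and say nothing of the amounts of protein.

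Igfbp2, a binding protein abundant in cerebrospinal fluid (ENSMUSG00000039323, chr1:72824503-72852474, plus strand), ranked first among the members in all 6 libraries. Its FPKM was 36.9 in sham, 49.7 on day 1, 94.3 on day 3, 54.3 on day 7, 55.6 on day 14 and 34.8 on day 28. Day 3 stood above all the others, and day 28 lay just under sham. Only the log2 ratio on day 3, 1.35, was past the fold, and it was at least 1.32 under each scaling. It was 0.43 on day 1, 0.56 on day 7, 0.59 on day 14 and -0.08 on day 28. On day 14 the length correction brought it to 0.19. Igfbp2 made up 29.2% of the summed binding proteins in sham, 33.3% on day 1, 43.8% on day 3, 31.9% on day 7, 33.7% on day 14 and 28.3% on day 28. Nearly all of it came from 1 start; a second start within the gene (chr1:72825322-72825474) was listed only on day 1, at 1.13 FPKM, and on day 3, at 0.923 FPKM.

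The 7 astrocyte markers summed to 610 FPKM in sham, 776 on day 1, 1351 on day 3, 1006 on day 7, 836 on day 14 and 644 on day 28. This sum was highest on day 3, as was Igfbp2. Gfap, the intermediate filament of reactive astrocytes, was the only 1 of 7 past the fold on day 1, 3, 7 and 14, none was past it on day 28, and all 7 were listed in every library. Gfap was the most abundant from day 1 to 14, and the glutamate transporter Slc1a2 in sham and on day 28. Of the 7 endothelial markers, 3 of 5 compared were higher on day 3 (Pecam1, Cdh5 and Vwf), none on day 7, 14 and 28, and 1 of 6 on day 1 (Cldn5, not listed in any other library). Tek was lower on day 1 and Flt1, then not listed, on day 14.

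The endothelial sum was 11.5 FPKM in sham, 12.1 on day 1, 22.6 on day 3, 12.5 on day 7, 11.8 on day 14 and 9.72 on day 28, with Pecam1 the most abundant except on day 7, when it was Cdh5, and with Esam not listed in any library. The genes most like Igfbp2 were Acot1 (0.06), an acyl-CoA thioesterase, the endothelial cadherin Cdh5 (0.10) and the cyclin Ccnd1 (0.14). Part of the Acot1 value came from events outside its annotated span, with 4.44 of 7.35 FPKM inside it in sham and 12.5 of 17.0 on day 3. Cdh5 had 2.16 FPKM in sham, 2.85 on day 1, 4.71 on day 3, 3.28 on day 7, 3.02 on day 14 and 1.96 on day 28. Cdh5 is itself among the endothelial markers. The part of astrocytes and endothelial cells in the Igfbp2 values was not tested.

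Igfbp3, the main carrier of IGFs in blood (ENSMUSG00000020427, chr11:7206086-7213923, minus strand), was the member with its highest value on day 1. It had 4.39 FPKM in sham, 9.19 on day 1, 7.50 on day 3, 5.36 on day 7, 4.76 on day 14 and 5.48 on day 28. After day 1 the values were lower from library to library until day 14, and sham was the lowest. The log2 ratio was 1.05 on day 1, 0.76 on day 3, 0.28 on day 7, 0.12 on day 14, with the opposite sign under the length correction, and 0.32 on day 28. The day 1 ratio was 0.99 after upper quartile scaling, 0.95 after the length correction and 0.92 with a pseudocount of 1, in each case just short of the fold. Its nearest profiles were those of the kinase Pak4 (0.09), most of whose value came from events outside its annotated span, the retinoic acid receptor Rara (0.10) and the membrane linker Ezr (0.11). Inside its span Pak4 had 2.45 FPKM in sham, 1.81 on day 1 and 3.46 on day 3. There day 1 was its lowest library, so this part did not share the day 1 maximum of Igfbp3. Ezr had 22.7 FPKM in sham, 42.4 on day 1, 35.9 on day 3, 25.0 on day 7, 19.3 on day 14 and 27.2 on day 28.

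Igfbp7, a secreted protein of vessel walls that binds IGFs weakly (ENSMUSG00000036256, chr5:77349240-77408041, minus strand), had 12.5 FPKM in sham, 18.9 on day 1, 28.4 on day 3, 20.7 on day 7, 25.3 on day 14 and 12.8 on day 28. With the values as deposited, day 3 and 14 were the highest, with a lower value on day 7 between them, and sham and day 28 were the lowest. The log2 ratio was 0.59 on day 1, 1.18 on day 3, 0.72 on day 7, 1.02 on day 14 and 0.04 on day 28. The ratio on day 14 was 0.92 after median ratio scaling, 0.96 after upper quartile scaling and 0.61 after the length correction, and so was past the fold only without them. On day 3 it stayed past the fold, at 1.15 or more, under the same settings. The length correction gave 0.65 on day 7, above the 0.61 of day 14, so the order of day 7 and 14 depended on the setting. An exon of 93 bases (chr5:77401487-77401579) was in only on day 3, for 0.382 FPKM or 1.34% of the transcripts.

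The profiles most like Igfbp7 were those of Fbln1 (0.09), an extracellular matrix protein, Haus8 (0.11), of the mitotic spindle, and Zrsr2 (0.12), of the minor spliceosome. Fbln1 had 4.87 FPKM in sham, 7.60 on day 1, 10.5 on day 3, 9.30 on day 7, 10.5 on day 14 and 5.0 on day 28. The 6 mural cell markers, of pericytes and smooth muscle, summed to 29.7 FPKM in sham, 28.0 on day 1, 46.7 on day 3, 38.6 on day 7, 35.1 on day 14 and 28.2 on day 28. Tagln alone was past the fold, on day 1 and 3 (1 of 6 compared on each day, and 0 of 6 on the others), Rgs5 was the most abundant, and all 6 were listed throughout. The endothelial, mural and fibroblast sums were each above sham on day 3, as was Igfbp7. On day 14 the mural and fibroblast sums were also above sham, while the endothelial sum was close to it (11.8 against 11.5). On day 1 the mural sum was below sham, and the endothelial and fibroblast sums were close to it. The part of these lists in the Igfbp7 values was not tested.

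Igfbp2, Igfbp3 and Igfbp7 are the binding proteins that passed the fold on some day, and the 250 bases before their starts are printed for this reason, from RefSeq (GRCm38.p6), with matches to the same 3 motifs in capitals. They lie at chr1:72824230-72824479 (plus strand), chr11:7213924-7214173 (minus strand) and chr5:77408046-77408295 (minus strand). The RefSeq start is that of the tables for Igfbp3, and lies 23 bases before it for Igfbp2 and 5 bases before it for Igfbp7. Igfbp2 held GGGCGG at 3 places and Igfbp7 at 4, 1 of them on the other strand, beside 32.7% of all promoters with at least 1. Igfbp3 held none of the 3 motifs in these exact letters, and neither TATAAA nor CCAAT was found in any of these windows. Other forms of the boxes may be present. A match is a run of letters and was not tested as a binding site.
Igfbp2 promoter: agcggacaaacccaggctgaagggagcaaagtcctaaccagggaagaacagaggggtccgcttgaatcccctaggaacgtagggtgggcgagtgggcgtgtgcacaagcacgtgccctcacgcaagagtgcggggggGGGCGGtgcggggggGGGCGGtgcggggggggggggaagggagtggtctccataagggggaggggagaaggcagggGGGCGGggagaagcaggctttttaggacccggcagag
Igfbp3 promoter: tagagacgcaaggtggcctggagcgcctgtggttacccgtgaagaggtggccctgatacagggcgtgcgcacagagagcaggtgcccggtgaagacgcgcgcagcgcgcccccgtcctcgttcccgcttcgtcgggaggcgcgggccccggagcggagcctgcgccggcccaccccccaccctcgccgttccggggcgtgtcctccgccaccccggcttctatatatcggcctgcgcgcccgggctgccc
Igfbp7 promoter: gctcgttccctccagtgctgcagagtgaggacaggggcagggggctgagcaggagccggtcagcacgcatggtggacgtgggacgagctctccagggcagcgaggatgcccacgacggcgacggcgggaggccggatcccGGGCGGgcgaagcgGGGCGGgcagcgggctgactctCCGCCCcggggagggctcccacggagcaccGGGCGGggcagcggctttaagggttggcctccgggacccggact

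Igfbp5, which binds IGFs and extracellular matrix (ENSMUSG00000026185, chr1:72857932-72874884, minus strand), had 27.0 FPKM in sham, 22.5 on day 1, 44.5 on day 3, 48.6 on day 7, 24.6 on day 14 and 28.6 on day 28. It was high on day 3 and 7, and close to sham on day 14 and 28. The log2 ratios on day 3 and 7, 0.72 and 0.84, were short of the fold. Those of the other days were -0.26 on day 1, -0.14 on day 14, with the opposite sign under the length correction, and 0.08 on day 28. The gene of Igfbp2 ends 5457 bases away on the opposite strand. Its nearest profiles were those of Mob1a (0.08), a Hippo pathway adaptor, Gpam (0.09), an enzyme of glycerolipid synthesis, and Slx4ip (0.09). Mob1a had 5.84 FPKM in sham, 4.71 on day 1, 10.5 on day 3, 11.4 on day 7, 5.99 on day 14 and 6.76 on day 28.

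Igfbp4, an inhibitor of IGF action that proteases can cleave (ENSMUSG00000017493, chr11:99041244-99054392, plus strand), had 15.8 FPKM in sham, 18.3 on day 1, 14.8 on day 3, 14.1 on day 7, 18.8 on day 14 and 15.4 on day 28. Its log2 ratios lay between -0.16 on day 7 and 0.25 on day 14. Igfbp6, which prefers IGF2 (ENSMUSG00000023046, chr15:102144362-102149511, plus strand), had 29.9 FPKM in sham, 30.6 on day 1, 25.8 on day 3, 27.4 on day 7, 36.1 on day 14 and 25.8 on day 28. Its log2 ratios lay between -0.21 on day 3 and 28 and 0.27 on day 14, and those on day 1 and 14 turned sign under the length correction, that on day 1 also under upper quartile scaling. Neither gene came near the fold on any day. For Igfbp4, the main start (chr11:99041244-99041845) held 87.4% of the summed starts in sham, 96.8% on day 1, 100% on day 3 and 7, 99.2% on day 14 and 85.1% on day 28, and a start that the annotation lacks (chr11:99041947-99042128) was listed in sham at 1.5 FPKM and on day 28 at 1.97.

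The makeup of the binding protein pool differed with these levels. Igfbp6 made up 23.6% of the sum in sham, 20.5% on day 1, 12% on day 3, 16.1% on day 7, 21.8% on day 14 and 21% on day 28. Igfbp5 made up 21.4% in sham, 15.1% on day 1, 20.7% on day 3, 28.5% on day 7, 14.9% on day 14 and 23.2% on day 28. Igfbp7 lay between 9.87% in sham and 15.3% on day 14, Igfbp4 between 6.86% on day 3 and 12.5% in sham and on day 28, and Igfbp3 between 2.88% on day 14 and 6.16% on day 1. Igfbp2 thus had its largest share on day 3 and Igfbp5 on day 7, while the shares of sham and day 28 were close to each other for all 6.

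**Figure D5:**
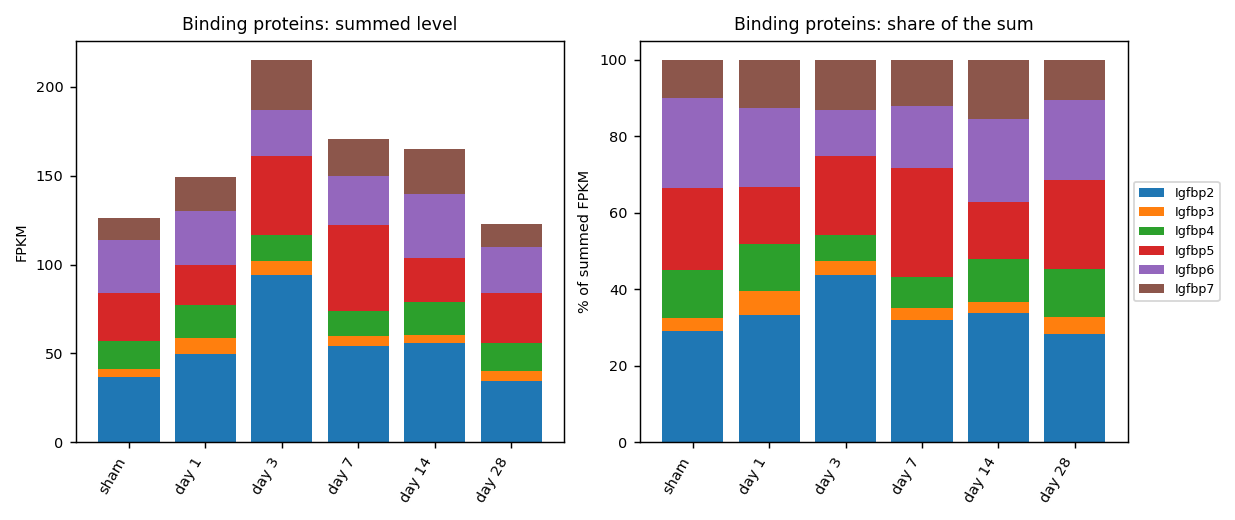
Binding proteins in each library, as stacked FPKM (left, from 0) and as percent of their sum (right). The sum was 126 FPKM in sham and 215 on day 3, and the share of Igfbp2 29.2% and 43.8%.

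Genes around the system were described from 4 lists with 46 genes, of which 35 had a value in at least 1 library. Past the fold were 0 of 29 compared on day 1, 3 higher of 30 on day 3, 2 higher of 30 on day 7, 3 higher and 2 lower of 30 on day 14, and 1 lower of 30 on day 28, counting a gene that was not listed as 0. The background shares are those given for the members, and none of these counts stood far from them. The median log2 ratio of the lists together was -0.03, 0.13, -0.02, -0.01 and 0.04 on day 1, 3, 7, 14 and 28.

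Among carriers, proteases and their inhibitors, 6 of 10 had a value; Igfbp1, Igfals (the acid-labile subunit of the circulating IGF complex) and the binding protein proteases Pappa and Pappa2 were not listed in any library. Htra1, a secreted serine protease that can cleave binding proteins, was the most abundant, at 62.2 FPKM in sham, 101 on day 1, 81.8 on day 3, 68.7 on day 7, 78.0 on day 14 and 77.0 on day 28, with no ratio past the fold. Its relative Htra3 had 1.67 in sham, 1.29 on day 1, 2.99 on day 3, 3.47 on day 7, 3.25 on day 14 and 1.53 on day 28, and was just past the fold on day 7 (log2 ratio 1.01). Stc1, of the stanniocalcins that inhibit the PAPP-A proteases, had 0.608 in sham, 0.934 on day 1, 1.31 on day 3, 0.811 on day 7, 1.52 on day 14 and 1.14 on day 28, with a log2 ratio of 1.19 on day 14. Ide, the insulin-degrading enzyme, had 3.53 in sham, 2.91 on day 1, 4.88 on day 3, 3.34 on day 7 and 0.800 on day 14, and was not listed on day 28. Ide thus counted as lower on day 14 and, being not listed, on day 28. The day 14 library held the fewest events (81985), and a gene that is not listed may be present. Neither count is therefore read as a lower level of Ide. Stc2 was listed only on day 1, 7 and 28, at up to 0.919 FPKM, and Igfbpl1 lay between 0.501 and 1.01 FPKM.

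Of 13 related receptors, growth hormone genes and adaptors, 10 had a value, and Insrr, Irs2 and Irs4 had none. The insulin receptor Insr had 3.69 FPKM in sham, 3.90 on day 1, 4.49 on day 3, 4.27 on day 7, 4.87 on day 14 and 4.03 on day 28, close to the level of Igf1r. The adaptor Shc1 had 2.26 in sham, 4.15 on day 1, 5.80 on day 3, 5.33 on day 7, 3.74 on day 14 and 2.71 on day 28, with log2 ratios past the fold on day 3 (1.32) and 7 (1.20). The growth hormone receptor Ghr had 1.45 in sham, 2.04 on day 1, 3.05 on day 3, 2.32 on day 7, 1.64 on day 14 and 2.60 on day 28, and was past the fold on day 3 (1.02). None of the 8 compared was past the fold on day 1, 14 or 28, Socs2 on day 1 being the nearest with a log2 ratio of 0.90. The insulin receptor substrate Irs1 was listed only on day 14, at 0.436 FPKM and from a transcript on the opposite strand, and Stat5a was under 1 FPKM in all libraries.

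The PI3K, AKT, TOR and FOXO genes, through which IGF1R signals inside the cell, all had values in the tables, 18 of 18. Their median log2 ratio was -0.04 on day 1, -0.03 on day 3, -0.10 on day 7, -0.36 on day 14 and -0.01 on day 28. Past the fold were Pik3cb on day 3 (1.03), and on day 14 Pik3cb (1.43) and Eif4ebp1 (1.26), which were higher, and Pdpk1, which counted as lower, and none on day 1, 7 and 28. Pik3cb, a catalytic subunit of PI3K, had 1.99 FPKM in sham, 3.57 on day 1, 4.16 on day 3, 2.82 on day 7, 5.53 on day 14 and 2.82 on day 28. Pdpk1, the kinase that activates AKT, had 14.2 in sham, 9.87 on day 1, 13.3 on day 3, 13 on day 7, 0.493 on day 14 and 14.0 on day 28. The day 14 value came from a transcript on the opposite strand, and no event on the strand of Pdpk1 was listed there; that library also held the fewest events (81985, against 90575 to 97289 in the others), so the ratio on day 14 is not read as a lower level of Pdpk1. Akt1, the most abundant in sham, had 48.1 in sham, 48.4 on day 1, 46.7 on day 3, 50.0 on day 7, 51.4 on day 14 and 44.7 on day 28. The median on day 14 was -0.45 after median ratio scaling, -0.41 after upper quartile scaling and -0.17 after the length correction, so that its sign held and its size did not, and on day 1 the length correction turned the sign (0.05).

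Of 5 genes tied to Igf2, the mRNA binding proteins Igf2bp1 and Igf2bp3 and the neighbours H19 (72622 bases away) and Ins2 (11839 bases away) were not listed in any library, and Igf2bp2 was listed only on day 1, at 0.399 FPKM. This is a statement on the tables used here, and the RNA of these genes may have been present.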

How the data were processed

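The FPKM values were computed and deposited by the authors for transcript starts, ends and splicing events in each library. The submitters' processing notes name Trimmomatic 0.30, HISAT2 2.0.1, HTSeq 0.6.1 and mm10; the assembler and the event caller are not given in the sources used here. Genes were taken by Ensembl identifier (15411 of 15441 matched GENCODE M21 on GRCm38). With 1 library per group no test was made, and no interval or floor is given. The members and lists were chosen with earlier results of these data known. Named are the 10 members, 46 pathway genes and 74 markers in 12 lists (2 more that were planned are left out of all counts and sums, for a reason other than their values), and the 3 genes most like each member with a log2 range of at least 1. Alternatives covered pseudocounts of 1 and 0.01, no filter and an FPKM of 5, starts only, ends only, events inside the annotated span, 2 scalings, a correction over 20 bins of transcript length, folds of 1.5 and 4, and genes listed in both libraries only. The methods were tested on simulated data. Calculations ran in Python 3.11.15 with pandas 2.3.3, numpy 2.4.6 and scipy 1.17.1, and plots in matplotlib 3.10.9.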

Additional observations from a re-analysis of the deposited data

Results flagged for a closer look

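At 2 of the member loci, RNA from the opposite strand was listed after stroke and not in sham. Igf2os, antisense to Igf2, was listed only on day 7, at 0.112 FPKM. Airn, the antisense RNA that overlaps Igf2r, was listed on day 1, at 0.80 FPKM, and on day 3, at 0.175 FPKM. Both values are low, neither gene entered the comparisons of the members, and the cause was not tested.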

How the results depend on the processing

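Under 13 alternatives the 10 counts of members higher or lower gave 130 values, of which 115 were within 1.5 times of the reported count and 15 were not, and no ratio past the fold changed sign. The reported counts lower on every day, and that higher on day 28, were 0. Where they stayed at 0 they are among the 115, so this number says little of how steady the other counts were. With a pseudocount of 1, the number higher was 0 on day 1 and 1 on day 14, and it was the same with upper quartile scaling (0 and 1) and with the length correction (0 and 1). Median ratio scaling gave 1 higher on day 14, as did the filter at an FPKM of 5, where Igf1, under 5 in both libraries, left the comparison. In the other cases on day 14 it was the log2 ratio of Igfbp7 that came under 1 (0.61 to 0.97), and on day 1 that of Igfbp3 (0.92 to 0.99). With starts only, 2 members were lower on day 14, Igf1r and Igf2r, whose main starts were not listed there, but 16.9% of the 11277 genes compared were lower under this setting, so 2 of 10 is near the background. By construction a fold of 1.5 gave more, with 2 higher on day 1, 5 on day 3, 3 on day 7 and 3 on day 14, against 11.5%, 15.9%, 15.3% and 18.5% of all genes, and a fold of 4 fewer, with 0 on day 1, 0 on day 3, 1 on day 7 and 1 on day 14, against 1.78%, 2.98%, 3.46% and 3.01%. The causes of the other differences were not tested. The unknown depth limits what can be said of values under 1 FPKM, as for Igf1 in sham and on day 1, and of genes that were not listed. With pooled RNA and 1 library per group, the spread between mice is unknown.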
